A study of Mus musculus with 6 samples.

Results

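The 10 genes described here belong to the cell skeleton and were followed through 2-colour arrays of mouse kidney RNA: the actin gene Actb, the actin monomer binder Tmsb4x, the cofilins Cfl1 and Cfl2, the ARP2/3 subunit Arpc5, the membrane linkers Ezr and Rdx, the myosin light chain Myl6 and the tubulins Tubb5 and Tuba4a. Every probe that the platform annotation assigns to one of these genes was taken, which gave 34 spots among 15114 that carry a single named gene, and 10 genes among 9107. Actb had 9 probes, Tubb5 had 7, Ezr had 6, Rdx had 3, Cfl1, Cfl2 and Arpc5 had 2 each, and Tmsb4x, Tuba4a and Myl6 had 1 each. Below, the brightest probe of a gene is the one with the highest mean brightness rank, and the probes of a gene are numbered from there.

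The kidneys came from male Swiss albino mice of 8 to 10 weeks, with 4 animals per group, taken 24 h after the drug. Mice received amodiaquine at 120 mg/kg, Sulfodoxine-Pyrimethamine (SP, spelled as in the labels) at 300 mg/kg and 15 mg/kg, or amodiaquine together with SP; control mice received the DMSO vehicle. On each array RNA of treated mice was set against RNA of vehicle mice, and each treatment has 2 files: replicate 1 with the treated RNA in Cy5 and replicate 2 with the dyes exchanged. The labels do not say whether the RNA of the 4 animals was pooled, nor whether the 2 arrays of a treatment used separate extracts. A p-value below therefore measures no spread between animals. Limma sets it, and each SE, from the spread between the 2 arrays at a spot, drawn toward that of all spots tested. Whole kidney was used, so a difference in the number of cells of a type and a difference in RNA per cell cannot be told apart.

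As background, actin filaments under the brush border and along the sides of tubule cells hold the microvilli, the cell junctions and the basal infoldings in place. Cofilins sever and take apart filaments, thymosin beta-4 (Tmsb4x) keeps actin monomers in reserve, the ARP2/3 complex starts branches, and ezrin and radixin tie filaments to the plasma membrane. Myosin light chains serve contraction, and microtubules, built of alpha- and beta-tubulin, carry vesicles through the cell. Loss of this order in proximal tubule cells is a known feature of kidney injury.

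A spot's position in the files bears on every value below. The arrays hold 48 blocks of 480 spots, in 20 rows and 24 columns, and for many blocks the pattern of bright spots in one file or one dye was moved by 1 to 3 rows or columns against the other files. Both dyes lay at the common position in 24 and 32 of 48 blocks of the amodiaquine files, in 37 and 7 of the SP files, and in 36 and 9 of the amodiaquine+SP files. In between 9 and 27 blocks per file the dyes were moved differently, so that a ratio at one spot number sets Cy5 of one position against Cy3 of another. Each block and dye was therefore also read at the position where its brightness matched the files of the other treatments (rank correlation at least 0.3). These values are called re-read, and the choice was made after the data had been seen. A separate measure bears on it: the 2 SP files hold the same numbers in large part, as do the 2 amodiaquine+SP files. At the same spot number 6.77% of Cy3 and 9.14% of Cy5 foreground values of the SP files were identical, and after placement 38.9% and 38.6% were. For amodiaquine+SP the shares went from 12.4% to 44.9% in Cy3 and from 8.16% to 31.2% in Cy5. Between the amodiaquine files no value was identical at either reading. SP and amodiaquine+SP thus have 1 scan each, deposited under both replicate numbers, and give no replicate, whereas amodiaquine has 2 scans.

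The members show the same thing spot by spot. For the brightest probes of the 10 genes, 4 of 20 pairs of SP readings were identical between the files at the same spot number, against 16 of 18 after placement. In amodiaquine+SP the numbers were 8 of 20 and 20 of 20. Over all 34 probes the numbers after placement were lower, 30 of 60 for SP and 34 of 60 for amodiaquine+SP, against 7 and 14 of 68 at the same spot number. The brightest Actb probe gives an example: its Cy3 foreground was 15210 in the SP replicate 1 file and 1033 at the same number in the replicate 2 file, and 15210 again 1 row further on, while its Cy5 foreground was 26170 in both. The log2 Cy5 over Cy3 ratio at that spot number was 6.96, and at the re-read spots it was 0.28.

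Gene names carry a limit of their own. Names were placed by the order of probe blocks given for this platform. Under it 148 ribosomal protein probes, of genes that are abundant in every cell, had a mean re-read rank of 74.1%, against 61.1% at most when names were moved by up to 2 rows or columns. At the deposited spot numbers their mean rank was 67.8% under this order and 52.8% when the spot number was taken as the probe number. The authors' deposited log ratios are listed under the spot number, and read that way the 34 member probes had a median rank of 51.4%, against 65.9% under the block order. Over the whole array the order thus placed abundant genes on brighter spots than the other orders tried. Within single blocks it was less clear: with 10 to 23 probes of abundant genes per block, the unmoved position gave the highest mean of 25 positions in 25 of 48 blocks, and in 1 of the 7 blocks that hold the brightest member probes (that of Actb and Tmsb4x). Also, 2 probes of one gene shared little brightness (Pearson r = 0.06 across 2143 genes with 2 probes; genes are not independent replicates). A value below is that of its spot, and belongs to the named gene only as far as this order holds in that block. Probe sequences were not used here, so signal from close relatives (Actg1 for Actb, other tubulins, Cfl1 and Cfl2 for each other, Ezr and Rdx for each other) cannot be separated.

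The genes were among the brighter ones of the array. Brightness rank is the place of a spot's background-corrected signal among all spots of its file and dye, in percent. The brightest probe of 8 of the 10 genes had a mean re-read rank of at least 90%, where 8.55% of all 9107 genes did. Genes with more probes have more chances of a bright one, so the count was also set against genes of like probe number: 1 of 3 genes with 1 probe against 4.82% of such genes, 3 of 3 with 2 probes against 11.3%, and 4 of 4 with 3 or more against 19.1%. Over all 34 probes, 10 reached 90%, against 5.54% of all named spots. The genes were listed with earlier results of these arrays known, so these counts describe the list and no test was made.

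In order of level the brightest probes had mean re-read ranks of 99.1% for Actb, 98.4% for Ezr, 97.9% for Arpc5, 97.1% for Tubb5, 96.9% for Rdx, 96.8% for Cfl1, 94.2% for Tmsb4x, 92.6% for Cfl2, 87.6% for Tuba4a and 81.7% for Myl6. Rank is a place on the array and not a level per transcript length, so the order says nothing of which RNA was more abundant. Ranges over the readings overlapped for most neighbours in it: Actb ran from 98.4% to 99.4%, Ezr from 97.5% to 99.0% and Arpc5 from 96.9% to 98.7%. Cfl1 (82.6% to 99.5%), Cfl2 (68.6% to 98.2%), Tuba4a (52.0% to 94.0%) and Myl6 (31.5% to 96.5%) ranged wider.

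**Figure D1:**
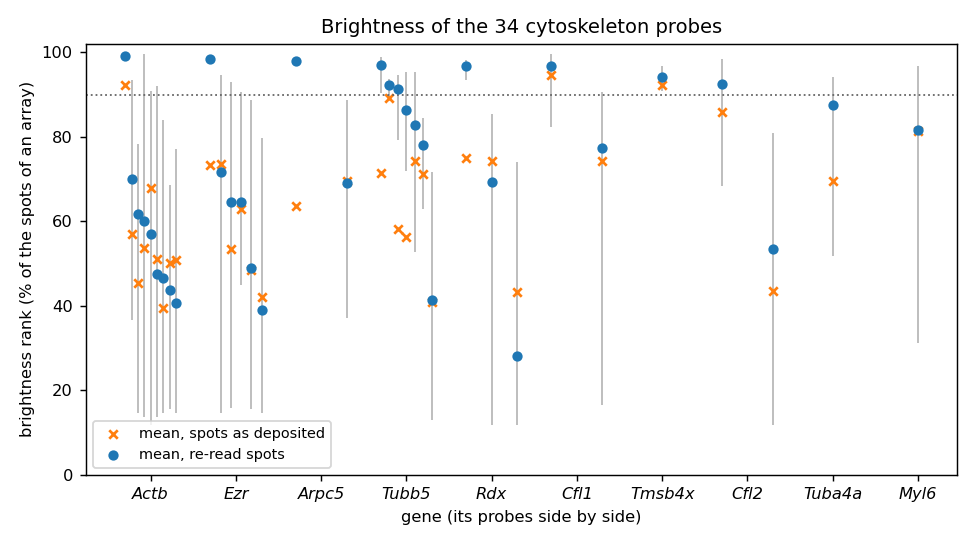
Brightness rank (percent of the spots of an array) of all 34 probes, grouped by gene; blue points are means over the re-read files and dyes, grey lines their lowest and highest reading, orange crosses means at the deposited spot numbers, and the dotted line marks 90%. Each of the leading genes has 1 probe near the top, and the other 8 Actb probes sit between 40.7% and 70.0%, while 3 of the 7 Tubb5 probes lie above 90%.

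Probes of one gene did not share a level. The 9 Actb probes are assigned to the same transcript record, yet the brightest had a mean rank of 99.1% and the other 8 lay between 40.7% and 70.0%. The 6 Ezr probes ran from 98.4% down to 38.9%, and 3 Rdx probes stood at 96.9%, 69.3% and 28.1%. Tubb5 was the exception among the genes with several probes, with 97.1%, 92.2%, 91.4%, 86.4%, 82.8%, 78.2% and 41.3%. Signal-to-noise, the scanner software's own ratio, reached 2 in 104 of the 118 placed readings of the 10 brightest probes and in 52 of 263 readings of the other 24. Most readings of the lesser probes were thus close to their local background, and a ratio there carries little signal.

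The spread of rank between readings was smaller at the re-read positions. The SD of rank over the 12 readings (6 files, 2 dyes) had a median of 26.4 percentage points over the 10 brightest probes at the deposited spot numbers and of 1.91 at the re-read spots, where Cfl1, Cfl2, Tuba4a and Myl6 still ranged widely (above). Over all 838 spots with a re-read rank of at least 90% the same medians were 26.7 and 2.27. Placement seeks agreement in brightness, and both sets were chosen by their mean re-read rank, so a smaller re-read spread is partly built in. The medians of the members moved as those of other bright spots did.

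**Figure D2:**
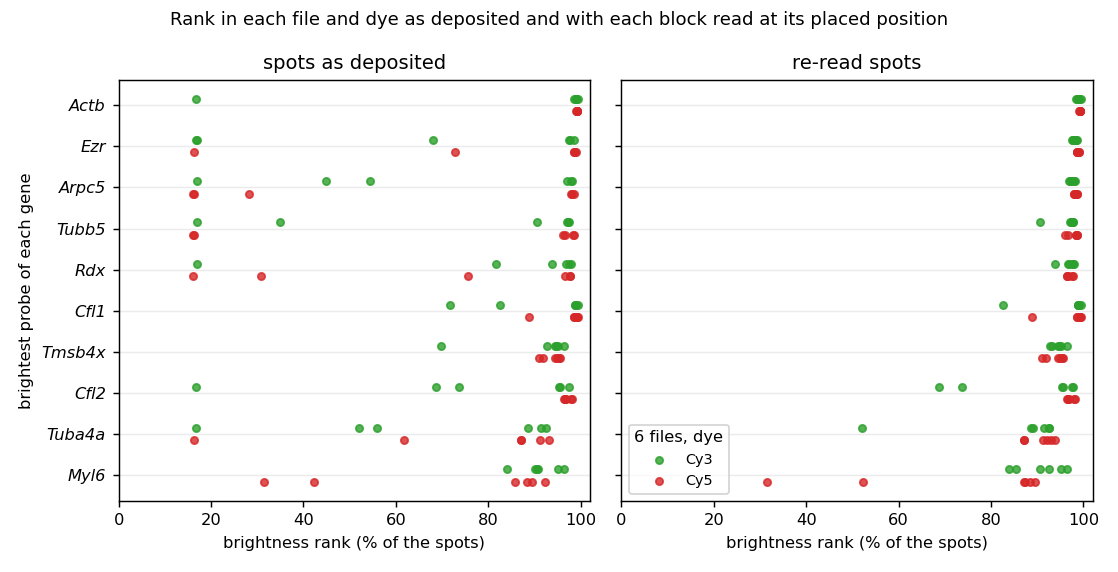
Brightness rank (percent of the spots) of the brightest probe of each gene in every file, Cy3 in green and Cy5 in red, at the deposited spot numbers on the left and at the re-read positions on the right. On the left Actb falls from 98% or more to 16.8% in 1 reading and Arpc5 scatters from 16.0% to 98.6%; on the right Actb, Ezr and Arpc5 stay above 96% in every placed reading, and Cfl1, Cfl2, Tuba4a and Myl6 keep single low readings.

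For amodiaquine, limma was run on the 2 arrays with the reverse array's sign turned by its labelled dyes, and 0 of 3638 spots passed a Benjamini-Hochberg adjusted p of 0.05, which makes the share called over the array 0%. At an unadjusted p under 0.05 there were 94. Of the member probes, 18 of 9 genes entered that test, none was called, and 2 had an unadjusted p under 0.05 (Arpc5 and Cfl1). At the re-read spots limma called 0 of 2991, with 29 at an unadjusted p under 0.05, 1 of them among the 17 member probes (Cfl1). The median log2 ratio of the member probes tested was 0.06, against 0.02 over all spots tested.

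The direction of the amodiaquine ratios is not settled by the data. A gene changed by the drug should give opposite Cy5 over Cy3 ratios on the 2 arrays, but over 1328 spots with signal-to-noise of at least 2 in both dyes the re-read ratios correlated positively (Pearson r = 0.767, across spots, which are not independent; r = 0.50 over 1130 spots as deposited). With the labelled signs the arrays thus oppose each other. Past 1.5-fold toward the same dye on both arrays were 30.1% of these spots, and past it in the same labelled direction were 0.602%. Of the 9 member probes among the 1328 spots, 2 were past 1.5-fold toward the same dye (Ezr toward Cy5 and Myl6 toward Cy3) and 0 in the same labelled direction. Ratios below are therefore given as log2 Cy5 over Cy3 per file, after loess within blocks unless stated, with replicate 1 before replicate 2. By the labels Cy5 holds the treated RNA in the first file of each pair, and Cy3 holds it in the second.

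**Figure D3:**
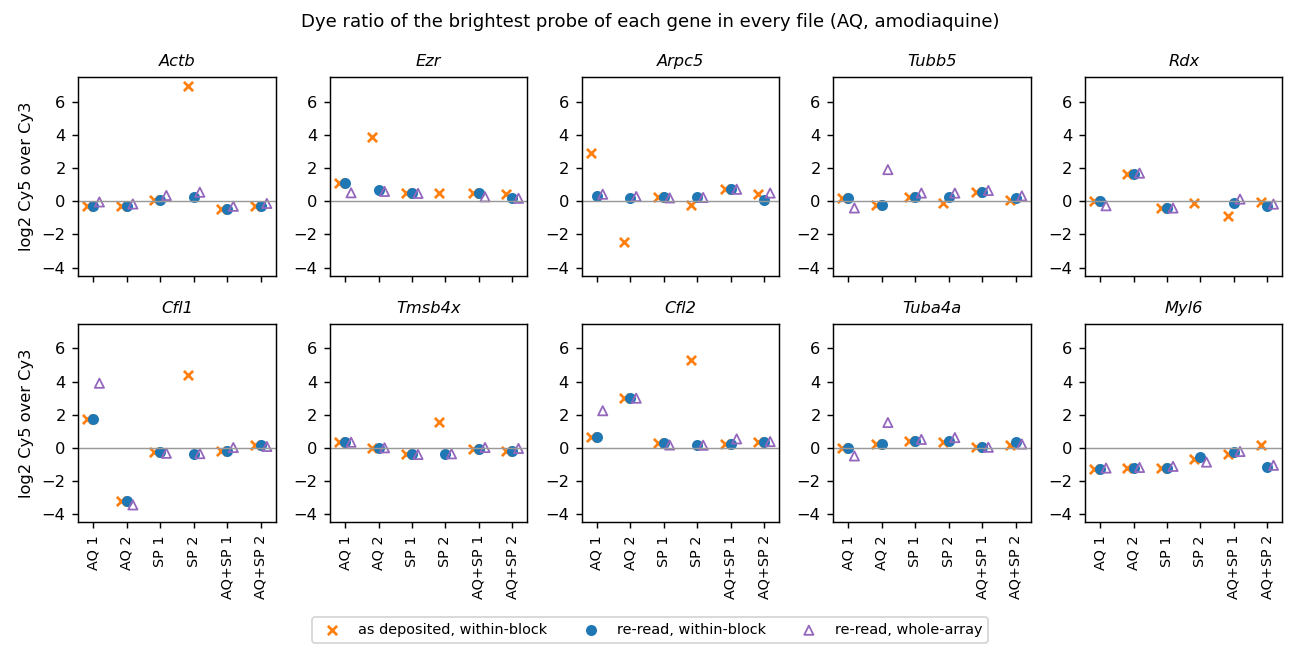
Log2 Cy5 over Cy3 of the brightest probe of each gene in the 6 files (AQ, amodiaquine): orange crosses as deposited and blue points re-read, both after within-block loess, purple triangles re-read after whole-array loess. The deposited SP replicate 2 file reaches 6.96 for Actb, 5.32 for Cfl2 and 4.39 for Cfl1, where the re-read ratios are 0.28, 0.16 and -0.37; Cfl1 alone keeps opposite ratios of over 1.5 on the 2 amodiaquine arrays at the re-read spots.

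Actb, the cytoplasmic beta-actin, gave bright and even signals. Foreground on the amodiaquine arrays was 14370 in Cy3 and 36150 in Cy5, then 18750 and 48640, over local backgrounds of 263.6 to 799.4, and signal-to-noise was 30.8 to 55.5. Its ratios were -0.26 and -0.30 for amodiaquine, 0.11 and 0.28 in the SP files, and -0.46 and -0.25 in the amodiaquine+SP files. All of these are small, and the amodiaquine pair leans to the same dye. The limma estimate of amodiaquine over vehicle was 0.02 ± 0.55 (SE, n = 2; adjusted p = 1). With whole-array loess the amodiaquine ratios were -0.26 and -0.16 as deposited. Actb probe 2, the next brightest, had -0.52 and -0.84 for amodiaquine at signal-to-noise of at least 2 in 3 of 12 readings. Probe 4 stood out in its block: its Cy5 foreground was 16960 in the SP scan and 908.9 in the amodiaquine+SP replicate 1 file. On the second amodiaquine array, with both dyes at the common position, it read -3.74 (Cy3 17390, Cy5 2204), and on the first, where the dyes were moved differently, -0.33 as deposited. The estimate was 1.70 ± 1.19 (SE, n = 2; limma adjusted p = 1), and 4.56 without background correction (adjusted p = 1; 0.558 to 1 over all settings). That block had the files' positions only weakly placed (median rank correlation 0.392), and its part in these differences was not tested.

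Tmsb4x, the monomer-binding thymosin beta-4, lay in the same block as the brightest Actb probe. Foreground on the amodiaquine arrays was 3684 in Cy3 and 9546 in Cy5, then 6097 and 11240, with signal-to-noise of 23.1, 13.6, 6.09 and 7.85. Ratios were 0.37 and -0.04 for amodiaquine, -0.36 and -0.40 in the re-read SP files, and -0.06 and -0.19 in amodiaquine+SP. At the deposited spot numbers the second SP file read 1.56. The amodiaquine estimate was 0.20 ± 0.54 (SE, n = 2; limma adjusted p = 1), which is within its error.

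Cfl1, the main cofilin of non-muscle cells, gave the one large amodiaquine contrast that remained at the re-read spots. Its ratios were 1.73 and -3.20, which is toward amodiaquine RNA on both arrays by the labels, and the estimate was 2.47 ± 0.66 (SE, n = 2; limma adjusted p = 1). Whole-array loess gave 3.71 and -3.46 and an estimate of 3.59 ± 0.97 (adjusted p = 0.371 by limma), and with re-read spots 3.68 ± 0.97 (adjusted p = 0.0827). In that last fit limma gave all spots the same SE, so it holds nothing of the spread at Cfl1 itself. None of these estimates passed the threshold, and over all settings tried the adjusted p ran from 0.0827 to 1. The estimate was 1.51 without background correction and 4.13 with only the array median set to 0. The other treatments' ratios were small: -0.23 and -0.37 in the re-read SP files and -0.18 and 0.15 in amodiaquine+SP. Its second probe, at a mean rank of 77.3%, read 0.25 and 0.25 for amodiaquine, an estimate of 0.00 ± 0.55.

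Foreground and background of that Cfl1 spot differed between the dyes. On the first amodiaquine array Cy5 had a foreground of 44020 over a local background of 1147, and Cy3 had 3706 over 2982, a signal-to-noise of 0.129. On the second it was turned about: Cy3 had 19700 over 869.0, and Cy5 had 7032 over 3861, a signal-to-noise of 0.878. In the SP and amodiaquine+SP scans both dyes were bright (17160 and 18100 for SP, 17880 and 35140 for amodiaquine+SP) over backgrounds of 688.4 to 1399. By the labels the dim dye held vehicle RNA on both amodiaquine arrays. Its background was above that in every other reading of that spot. The dim dye failed the signal-to-noise minimum of 2 on both arrays, which keeps Cfl1 out of the 1328 spots above. The part of the local background in the ratio was not tested.

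Cfl2, the cofilin best known from muscle, sits in the same block, and its dim dye was Cy3 on both arrays. Cy3 foreground was 2310 over a background of 1974 and then 4434 over 3714, while Cy5 was 12230 over 1800 and 14560 over 1128. The ratios were 0.63 and 2.98 for amodiaquine, both toward Cy5 and so opposite by the labels, with an estimate of -1.17 ± 1.08 (SE, n = 2; limma adjusted p = 1). Whole-array loess moved the first ratio to 2.10 and left the second at 2.96. The re-read SP files gave 0.26 and 0.16 and the amodiaquine+SP files 0.26 and 0.33. Here the dim dye with the high local background was Cy3 each time. For Cfl1 the dim dye was that of the vehicle RNA by the labels.

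**Figure D4:**
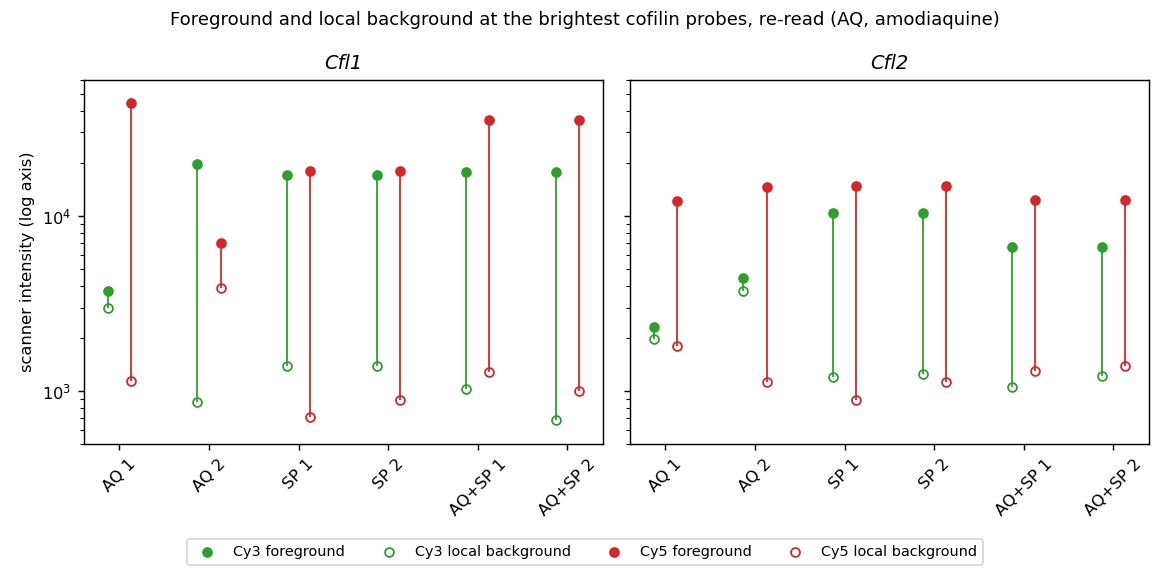
Scanner foreground (filled) and local background (open) at the brightest Cfl1 and Cfl2 probes in the 6 files, re-read, on a log axis; Cy3 is green, Cy5 red, and AQ is amodiaquine. Cfl1 has 1 dim dye on each amodiaquine array, Cy3 at 3706 over 2982 and Cy5 at 7032 over 3861; Cfl2 is dim in Cy3 on both.

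Arpc5, a subunit of the branch-forming ARP2/3 complex, had the smallest p among the members as deposited with loess within blocks (Cfl1 had it with whole-array loess). The difference was lost when its dyes were read at one position. At the deposited spot number the ratios were 2.91 and -2.46, with an estimate of 2.68 ± 0.54 (SE, n = 2; limma adjusted p = 1, and 0.429 to 1 over all settings). In its block Cy3 of the first array and Cy5 of the second were moved by 1 column. The rank correlation of these placements was 0.63 for Cy3 and 0.308 for Cy5, the latter just over the minimum of 0.3. Read at the moved positions, Cy3 foreground on the first array went from 493.6 to 6705 and Cy5 on the second from 1114 to 23520, beside 19140 and 8612 in the other dyes. The re-read ratios were 0.30 and 0.19, and the estimate was 0.05 ± 0.55 (limma adjusted p = 1). In the SP files they were 0.27 and 0.28. In amodiaquine+SP they were 0.74 in the replicate 1 file and 0.10 in the replicate 2 file, from identical foreground values. Its 0.74 made Arpc5 the only one of 11 measured member probes past 1.5-fold in that scan, where 18.9% of 2130 spots were, and the second file of the same scan did not repeat it. In the SP scan 0 of 10 member probes were past 1.5-fold, where 21.8% of 2012 spots were.

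Ezr (ezrin), the brush border linker, had a ratio that the position also changed. As deposited it read 1.12 and 3.91 for amodiaquine, and re-read 1.12 and 0.69, since Cy3 of the second array went from 1476 to 9017 when read 1 column further on. Both are toward Cy5, and the labelled estimate went from -1.40 ± 1.42 to 0.22 ± 0.68 (SE, n = 2; limma adjusted p = 1 for both); without turning the sign it was 0.90 ± 0.22 (adjusted p = 0.142 by limma). With whole-array loess and re-read spots the pair was 0.51 and 0.60. The SP replicate 1 file gave 0.50, the second SP file could not be placed in Cy5, and amodiaquine+SP gave 0.52 and 0.21. Every re-read ratio of this probe leaned to Cy5. The dimmer Ezr probe 2 read 0.05 and 0.10 for amodiaquine.

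Rdx (radixin) gave 0.02 and 1.66 for amodiaquine, both dyes at the common position. The uneven array is the second, where Cy3 foreground was 3713 over 803.7 and Cy5 was 21370 over 1216; on the first they were 8187 and 16190, with a Cy3 background listed at 0. The estimate was -0.82 ± 0.69 (SE, n = 2; limma adjusted p = 1). Whole-array loess gave -0.47 and 1.69. SP replicate 1 read -0.42, and the re-read amodiaquine+SP files read -0.12 and -0.29. After loess within blocks the probe leaned to vehicle RNA by the labels on the second amodiaquine array and not on the first. After whole-array loess it leaned to vehicle RNA on both, less on the first.

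Myl6, the light chain of non-muscle and smooth muscle myosin, leaned to one dye in every file when re-read. Its ratios were -1.30 and -1.19 for amodiaquine, -1.21 and -0.58 in the re-read SP files, and -0.24 and -1.18 in amodiaquine+SP, all toward Cy3. As deposited the second amodiaquine+SP file read 0.14. With the labelled sign the amodiaquine estimate was -0.05 ± 0.84 (SE, n = 2; limma adjusted p = 1), and without turning it -1.24 ± 0.19 at the re-read spots (adjusted p = 0.115 by limma). Signals on the amodiaquine arrays were moderate: foreground was 3734 and 3346, then 5680 and 4442, in Cy3 and Cy5. Re-read Cy5 reached a signal-to-noise of 2 in 2 of 6 files, those of amodiaquine, and not in the SP and amodiaquine+SP files. In the SP replicate 1 file Cy5 was at its background, 1065 over 1046, so that ratio rests on Cy3 alone. SP and amodiaquine+SP have 1 scan each, so their second files do not repeat the lean independently.

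**Figure D5:**
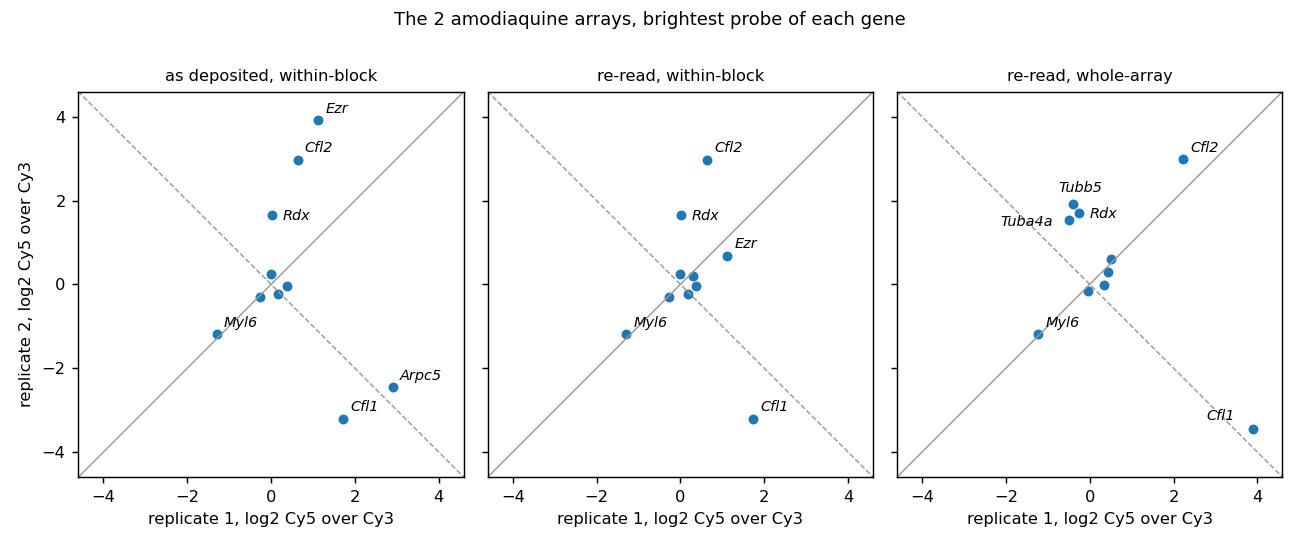
Log2 Cy5 over Cy3 of the brightest probe of each gene on the first (horizontal) and second (vertical) amodiaquine array, as deposited and re-read after within-block loess, and re-read after whole-array loess. Opposite ratios of like size, as the labels ask of a drug effect, lie near the dashed line. Like ratios toward the same dye lie near the solid line. Arpc5 leaves the dashed line on re-reading (2.91 and -2.46 to 0.30 and 0.19), and Cfl1 stays by it. Tubb5 and Tuba4a move off the centre only under whole-array loess.

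The tubulin ratios changed with the normalization. Tubb5, a beta-tubulin of most tissues, read 0.17 and -0.23 for amodiaquine after loess within blocks, and -0.59 and 1.90 after loess over the whole array. Tuba4a, an alpha-tubulin 4 rows further down the same block, read -0.01 and 0.25 against -0.61 and 1.51. Both genes moved the same way with the setting, and so did the sign of the Tubb5 estimate, 0.20 ± 0.53 within blocks against -1.24 ± 0.99 over the array (SE, n = 2; limma adjusted p = 1 for both). In the SP files Tubb5 gave 0.24 and 0.24 and Tuba4a 0.41 and 0.42 when re-read. In amodiaquine+SP they gave 0.54 and 0.21, and 0.03 and 0.32. Foreground of Tubb5 on the amodiaquine arrays was 6458 and 10030, then 2810 and 14070 in Cy3 and Cy5, and that of Tuba4a was 2525 and 2103, then 924.1 and 4263. On the second array Tuba4a was below the signal-to-noise minimum in both dyes and so was not tested.

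Signal-to-noise reached 2 in 10 of 12 placed readings of Tubb5 probe 2 and in 10 of 11 of probe 3. For probes 4 and 5 it did so in 5 and 7 of 11. Probe 2, of another transcript record, read -0.08 and 0.78 when re-read, and probe 3 read 0.10 and -0.03, from ratios of 0.73 and 0.78 and of -0.62 and -1.04 at the deposited spot numbers. Probe 4 read 0.25 and 0.60 and probe 5 read 0.49 and 0.33, both toward Cy5 on each array and so opposite by the labels. None was called by limma in the settings where it passed the filter, which for probe 2 was only the fit without a filter. Probe 2 was thus below the signal-to-noise minimum in both dyes on an amodiaquine array, and its ratio there carries little signal.

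The dimmer probes are given for completeness, since most of their readings lay near local background. Re-read ratios on the 2 amodiaquine arrays were -0.38 and -0.76 for Actb probe 6, -0.04 and -0.21 for Actb probe 8, and 0.03 and 0.11 for Actb probe 9. Actb probe 5 was placed on the second array only (0.29), and Actb probes 3 and 7 on neither. Arpc5 probe 2 read 0.01 and -0.44, and Cfl2 probe 2 read 0.13 and 0.53. These Arpc5 and Cfl2 probes did not reach a signal-to-noise of 2 in any reading. Ezr probes 3, 4 and 5 read -0.23 and -1.13, -0.33 and -0.62, and 0.05 and -0.17, and Ezr probe 6 was placed on the second array only (0.24). Rdx probe 2 read -0.24 and 0.43 and Rdx probe 3 read 0.12 and -0.20. Tubb5 probe 7 read -0.06 and -0.47, and Tubb5 probe 6 was placed on the first array only (-0.25). Over the placed ones of the 24 lesser probes, the first SP file ran from -1.46 (Tubb5 probe 4) to 0.96 (Ezr probe 5) and the first amodiaquine+SP file from -0.16 (Tubb5 probe 3) to 0.10 (Rdx probe 2).

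Agreement between the files of a treatment can be set beside these ratios. For the 10 brightest probes the median absolute difference in log2 ratio between the 2 amodiaquine arrays was 1.02 as deposited and 0.40 re-read, with the largest at Arpc5 (5.36) and at Cfl1 (4.93). Between the 2 files of the SP scan it was 0.50 as deposited and 0.07 re-read over the 8 probes placed in both. Between the amodiaquine+SP files it was 0.27 and 0.30, although the foreground values are identical after placement. Re-read ratios of one scan thus differed by up to 0.63 (SP) and 0.94 (amodiaquine+SP), both at Myl6. For amodiaquine+SP the foreground values of Myl6 were identical in both files. In SP its Cy5 foreground was not, so the 2 placed positions did not give the same reading. The rank correlation of that placement was 0.657 in the first SP file and 0.477 in the second, and its part was not tested. All spots with both dyes above the minimum were also taken, separately for each reading, so the sets of spots differ. Their SD of the difference was 1.04 as deposited and 0.58 re-read for amodiaquine (1130 and 1328 spots). It was 0.87 and 0.54 for SP (356 and 1337 spots) and 1.2 and 0.53 for amodiaquine+SP (433 and 1526 spots).

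Other genes of the cytoskeleton were taken from a list of 94, grouped by role. Of these 67 were on the array, 12 had a brightest probe with a mean re-read rank of at least 90%, 24 were tested for amodiaquine at the re-read spots, and limma called 0, against the 0% over the array. Of the 24 estimates 12 were above 0 and 12 below, with a median of 0.01. Among ARP2/3 and nucleation genes the brightest were Arpc5l at 98.8% and the formin Diaph1 at 82.5%, and among depolymerizing, capping and monomer-binding genes Cap1 at 94.0% and the cofilin phosphatase Ssh1 at 89.6%. Membrane linkers were led by zyxin (Zyx, 98.0%) and the spectrin Sptbn1 (90.8%), microtubule-associated genes by the dynein heavy chain Dync1h1 (98.6%) and the chaperonin subunit Tcp1 (92.1%), and myosins and tropomyosins by Myh10 (97.9%) and Myo1c (91.5%). Among other actins and cross-linkers Actg1 stood at 94.8% and Actr3 at 86.3%, and among other tubulins Tuba1b at 81.8% and Tubb4b at 62.3%.

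Myh10, a non-muscle myosin heavy chain, shared the lean of Myl6 on the amodiaquine arrays, with re-read ratios of -1.50 and -1.42, and both probes lie in the same block. In the SP scan Myh10 read -0.23 and -1.81 in the 2 files where Myl6 read -1.21 and -0.58, so neither gene was steady there. Cy5 of that block was placed at a rank correlation of 0.657 in the first SP file and 0.477 in the second. The part of the placement in these differences was not tested. Actg1, the gamma-actin gene, gave 0.70 and 0.55 on the amodiaquine arrays, toward Cy5, while Actb gave -0.26 and -0.30. Neither pair changes sign between the 2 arrays, whose dyes are exchanged by the labels.

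Kidney markers were checked on the same spots. Of 15 proximal tubule genes 7 were on the array, with a median rank of 82.2%, from Gatm at 60.3% to Slc27a2 at 96.3%; The 4 thick limb and distal genes on the array were Umod at 94.8%, Calb1 at 84.4%, Wfdc15b at 62.0% and Slc12a1 at 38.0%, and none of 6 collecting duct genes was on the array. Of 8 smooth muscle and fibroblast genes on the array Vim stood at 96.7% and the other 7 between 35.7% and 78.1%, and the blood and immune genes were Lyz2 at 94.5% and Ptprc at 42.1%. The 4 glomerulus genes on the array lay between 48.8% and 67.9%, and the skeletal muscle gene Mylpf at 29.1%. The median log2 Cy5 over Cy3 of the proximal tubule genes was -1.25 and -1.72 on the amodiaquine arrays. It was -0.64 and -1.12 in the SP files and -0.17 and -0.13 in amodiaquine+SP. Thick limb and distal genes had -0.32 and -0.35 on the amodiaquine arrays, and glomerulus genes -0.35 and -0.17. Smooth muscle and fibroblast genes had 0.01 and -0.03 there, and blood and immune genes 0.04 and 0.13. For amodiaquine, the only treatment with 2 scans, tubule medians thus leaned to Cy3 in both files, as Myl6 did. The glomerulus medians did so too, from 4 genes ranked no higher than 67.9%. No signal-to-noise minimum was set for these medians, and ratios of dim spots carry little signal. The part of these marker genes in the member ratios was not tested.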

How the data were processed

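The 6 files of 2-colour arrays, 2 per treatment, were grouped by their labels. Per the labels' design text, images were read with ImageQuant 5.0 and ArrayVision 8.0, and the authors' deposited log ratios (log2 scale) are background-corrected, LOWESS-normalized values from Avadis 4; they matched a whole-array loess of background-subtracted signal (slope 0.990 to 1.000 for replicate 1 files and -0.999 for replicate 2 files). For each spot and dye the deposited values are a foreground intensity, a local background, their difference and a signal-to-noise ratio (a score of the scanner software), per the file headers. Between 11.0% and 35.0% of spots per file and dye reached signal-to-noise 2, and 2 arrays limit precision.

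Intensities were corrected with normexp (offset 50) and normalized by loess within blocks, in limma 3.58.1 (R 4.3.3), with whole-array loess beside it. Spots with signal-to-noise of at least 2 in at least 1 dye on both arrays entered lmFit and eBayes on the 2 amodiaquine arrays; p-values were adjusted by Benjamini-Hochberg over all spots tested. SP and amodiaquine+SP have 1 scan each and no test; past 1.5-fold is given. Names came from the platform annotation through the stated block order, matched to RefSeq symbols for 8991 of 9107 genes; 206 spots with several genes and 7720 with none were left out. Scripts were tested on simulated data with 200 changed probes. The amodiaquine fit recovered 96% of them at a log2 ratio of 4, with 10 false calls, and 0% at a log2 ratio of 2. All 200 changed by the same amount, so a lone changed probe was not simulated. In the data an estimate of 6.996 (Arpc5, the authors' log ratios) was not called (limma adjusted p = 0.817). An absence of calls thus does not show that RNA levels were unchanged. All members and all their probes are named, and of the wider list the 2 brightest genes per role, except 1 role that is counted in the totals and not reported here by name. Members and lists were chosen with earlier results of these data known; re-reading and the check of name positions were added after seeing the data.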

Additional observations from a re-analysis of the deposited data

How the results depend on the processing

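No member probe was called by limma under any setting tried. Over the array the amodiaquine fit called 0 of 3638 spots (94 at an unadjusted p under 0.05), against 2 with whole-array loess, 4 with only the array median set to 0, and 3 with re-read spots and whole-array loess; the cause was not tested. Signs of the amodiaquine log2 estimates of the brightest probes, none of them called, changed as follows. Whole-array loess gave -0.055 for Actb and -1.24 for Tubb5; with re-read spots Tubb5 was -1.16. The array median set to 0 gave 0.15 for Cfl2, -0.61 for Tubb5 and 0.46 for Myl6. The authors' deposited log ratios gave 0.52 for Cfl2, -0.996 for Tubb5 and 0.066 for Myl6. Re-read spots gave 0.22 for Ezr. Without turning the sign the values were -0.28 for Actb, -0.74 for Cfl1, 1.80 for Cfl2, 2.52 for Ezr, 0.84 for Rdx, -0.028 for Tubb5 and 0.12 for Tuba4a. Leaving out either array gave -0.26 to 0.30 for Actb, -2.98 to 0.63 for Cfl2, -3.91 to 1.12 for Ezr, -1.66 to 0.02 for Rdx and -1.30 to 1.19 for Myl6. In single files, re-reading turned the second SP file's ratios of Cfl1 to -0.37 (-0.35 with whole-array loess) and of Tmsb4x to -0.40 (-0.36), and whole-array loess with re-reading turned Rdx in the first amodiaquine+SP file to 0.14. Background subtraction and no background correction changed no sign of the 10 amodiaquine estimates. The median rank of the member probes was 65.9% as deposited, 70.9% re-read, 66.2% by foreground and 51.4% with spot numbers as probe numbers. No paired analysis was possible because each array already sets treated against vehicle RNA, and 2 of the 3 treatments have 1 scan.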
